A study of Homo sapiens with 20 samples.

Results

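The 86 nuclear genes described here encode the subunits of the mitochondrial respiratory chain and of the ATP synthase, followed by RNA sequencing in proteasome inhibitor-resistant cell lines and their drug-sensitive parents. They were chosen by gene name from the 18305 genes listed: symbols starting with NDUFA, NDUFB, NDUFC, NDUFS or NDUFV (complex I), SDHA to SDHD (complex II), UQCR (complex III), COX4 to COX8 (complex IV) and ATP5 (complex V, the ATP synthase). Of the genes with these prefixes, 13 assembly factors or former names of such factors and 2 read-through genes were left out. The 86 comprise 37 genes counted in complex I, 4 in complex II, 9 in complex III, 17 in complex IV and 19 in complex V; NDUFA4 and NDUFA4L2 were counted in complex IV, where the NDUFA4 protein is now placed. The mitochondrially encoded subunits, COX4I2 and COX6A2 were not analysed here.

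The respiratory chain passes electrons from NADH (complex I) and succinate (complex II) through complex III to oxygen at complex IV, and complexes I, III and IV pump protons across the inner mitochondrial membrane. Complex V lets the protons back and makes ATP. Plasma cells secrete antibody in bulk, and bortezomib and carfilzomib block the proteasome on which cells with such a protein load depend heavily.

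The study held 20 libraries in 10 groups of 2 biological replicates. AMO1, L363 and RPMI-8226 are human multiple myeloma lines, and ARH-77 is a B-lymphoblastoid line; each was sequenced as the sensitive parent (WT) and as a bortezomib-resistant line (BtzR), and AMO1 and L363 also as a carfilzomib-resistant line (CfzR). Resistant cells were kept in 90 nM of their drug, and all lines grew in RPMI-1640 medium with fetal bovine serum. Each resistant group is 1 adapted line, so every difference below is a difference between that line and its parent, with the drug and the adaptation together.

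Values were deposited as FPKM (fragments per kilobase of transcript, scaled to the mapped fragments of the library, a level per length), without read counts, so the depth behind each value is unknown. Between 10455 and 11023 genes reached 1 FPKM in each library. The plasma cell marker SDC1 stood at 38.2 to 3266 FPKM in the myeloma libraries and at 8.4 to 9.9 in ARH-77, while the B-cell marker MS4A1 was at most 0.23 FPKM in myeloma libraries and at least 57.7 in ARH-77. The 2 libraries labelled AMO1 CfzR stood apart: across genes, which are not independent replicates, their log2 values correlated with those of L363 CfzR at r = 0.990 to 0.992, with L363 BtzR at 0.988 to 0.989 and with L363 WT at 0.986 to 0.987, but with AMO1 WT at 0.878 to 0.883 and with AMO1 BtzR at 0.879 to 0.882. Their values thus go against their label, and whether libraries, cultures or labels were exchanged was not tested. They are therefore called the libraries labelled AMO1 CfzR, are compared with both WT lines, and are kept out of statements on AMO1. In bulk RNA of a culture, fewer cells with a transcript and less of it per cell cannot be told apart.

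Differences are log2-fold changes on the log2(FPKM + 1) scale ± standard error, resistant minus WT, from one limma model of all 20 libraries; the added 1 shrinks the changes of low genes. A gene was tested if its mean reached 1 FPKM in at least 1 group, which 13089 genes and 84 of the 86 subunit genes did. A gene is called higher or lower where its p-value, adjusted over all genes tested, was under 0.05. With 2 libraries a group, an exact two-sided permutation test of a single gene cannot go below p = 0.33, so all calls rest on the spread pooled over groups.

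In the WT lines the subunit genes spanned a wide range of levels, and the lines differed in which subunit was high. All 86 together made up 2.37% to 3.09% of the summed FPKM of the WT libraries. The highest of each complex, as the mean over the 4 WT groups, was NDUFB9 at 246 FPKM in complex I, SDHB at 135 in complex II, UQCRH at 360 in complex III, COX7C at 517 in complex IV and ATP5F1B, the catalytic beta subunit, at 646 in complex V. The lowest tested subunits of the same complexes were NDUFA5 at 16.1, SDHC at 55.9, UQCRHL at 9.54, COX6B2 at 1.40 and ATP5MGL at 1.13 FPKM. UQCRHL is a near copy of UQCRH, and ATP5MGL a near copy of ATP5MG, so the reads behind these low values could have been split between copies.

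Tissue-restricted isoforms were near 0. COX7A1, the muscle and heart form of subunit 7a, was at most 0.23 FPKM and was listed at 0 in 6 libraries. COX8C, a testis form, was at most 0.43 FPKM and was listed at 0 in 16 libraries; these were the 2 genes not tested. COX7B2, another testis-enriched form, was listed at 0 in 17 libraries and reached 6.98 and 8.73 FPKM in the RPMI-8226 WT libraries.

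**Figure D1:**
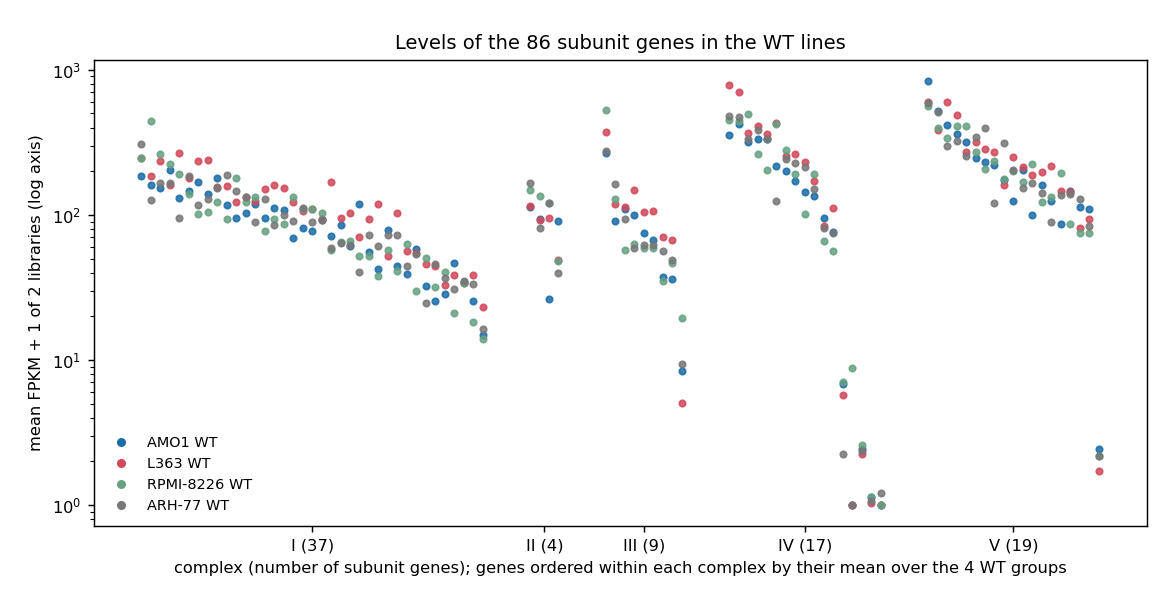
Mean FPKM + 1 (log axis) of each of the 86 subunit genes in the 4 WT groups, 2 libraries a group, one column of points per gene and one colour per line. Low isoforms lie at the foot of complexes III, IV and V, and lines are set apart by SDHD, low in AMO1 (24.3 and 26.4 FPKM), and NDUFV2, high in RPMI-8226 (440 and 449 FPKM).

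The WT lines differed in 81 of the 84 tested subunit genes by a moderated F test over the 4 WT groups, beside 92.6% of all genes tested. The 81 include COX7B2, listed at 0 in all WT libraries but those of RPMI-8226. It was tested only because of that group, so the filter fixed its outcome. The 3 genes that did not pass the F test were NDUFB3, NDUFS1 and COX6B2. SDHD, a membrane anchor of complex II, measured 24.3 and 26.4 FPKM in AMO1 WT against 89.7 to 122 in the WT libraries of the other lines (limma F test, adjusted p = 2.76e-12). NDUFV2, an iron-sulfur subunit of the NADH-binding arm of complex I, measured 440 and 449 FPKM in RPMI-8226 WT against 121 to 184 in the other WT libraries (adjusted p = 1.40e-11). Both genes thus had 1 line far from the rest, and the groups did not overlap. COX8A, the common form of subunit 8, was lowest in ARH-77 WT, at 101 and 144 FPKM, and reached 412 to 430 in L363 WT and RPMI-8226 WT, with AMO1 WT between at 175 and 254.

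Because subunits of one complex are built into it together, the promoters of these genes were read for motifs of factors known to act at nuclear respiratory genes: NRF1 (GCGCATGCG), the ETS family including GABP (CCGGAAG), YY1 (AANATGGC) and the cAMP response element (TGACGTCA). Both strands were searched from 250 bases before to 50 bases after the annotated start, in the RefSeq promoters of GRCh38.p14, which held 71 of the 86 genes. The NRF1 motif was found in 10 of the 71 promoters (14.1%) and in 3.71% of the promoters of all genes tested. The YY1 motif was found in 22 (31.0%, against 10.0%), the ETS motif in 20 (28.2%, against 19.1%) and the cAMP response element in 5 (7.04%, against 3.24%). A match describes the letters only and is not a bound site.

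The 100 bases before the annotated start are shown for 6 subunit genes described below that carry a motif there (in capitals, on either strand). So are those of NDUFS4 and NDUFV2, the complex I genes with the widest rise and fall, whose windows carry none of the 4 motifs. The stretch searched is longer than these windows. Outside them, NDUFS4, NDUFV2, NDUFS7 and NDUFA1 each have a YY1 match, and SDHD has NRF1 matches. Each window is written 5′ to 3′ on the strand of its gene.
NDUFS7 (NRF1, chr19:1383807-1383906, plus strand): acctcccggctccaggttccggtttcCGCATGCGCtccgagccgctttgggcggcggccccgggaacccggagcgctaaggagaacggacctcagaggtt
ATP5MC2 (NRF1, chr12:53676084-53676183, minus strand): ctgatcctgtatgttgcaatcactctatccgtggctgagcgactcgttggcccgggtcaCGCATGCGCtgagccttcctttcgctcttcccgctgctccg
NDUFA1 (ETS, chrX:119871732-119871831, plus strand): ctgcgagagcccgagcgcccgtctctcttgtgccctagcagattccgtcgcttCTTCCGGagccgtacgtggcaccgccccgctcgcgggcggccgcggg
SDHD (ETS, chr11:112086773-112086872, plus strand): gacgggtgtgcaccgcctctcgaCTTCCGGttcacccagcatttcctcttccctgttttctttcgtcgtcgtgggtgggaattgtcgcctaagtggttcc
COX7B (YY1, chrX:77899368-77899467, plus strand): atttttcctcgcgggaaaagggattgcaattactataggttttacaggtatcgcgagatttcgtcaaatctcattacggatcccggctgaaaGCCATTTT
ATP5MC1 (cAMP response element, chr17:48892687-48892786, plus strand): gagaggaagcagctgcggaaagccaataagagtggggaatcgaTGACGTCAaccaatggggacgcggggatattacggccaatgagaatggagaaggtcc
NDUFS4 (none, chr5:53560539-53560638, plus strand): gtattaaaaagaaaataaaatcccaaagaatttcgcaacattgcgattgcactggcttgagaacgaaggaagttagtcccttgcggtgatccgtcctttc
NDUFV2 (none, chr18:9102599-9102698, plus strand): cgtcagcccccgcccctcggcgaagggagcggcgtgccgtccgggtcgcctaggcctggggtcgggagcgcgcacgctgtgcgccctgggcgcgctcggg

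In AMO1 BtzR cells more subunit genes were higher than lower in every complex. Compared with AMO1 WT, 46 of the 84 tested were higher and 11 lower, where 25.6% of all genes tested were higher and 25.6% lower. The median log2-fold change was 0.31 over the subunit genes and 0.00 over all genes. Most steps were small: 4 subunit genes passed 2-fold, all upward, beside 9.18% of all genes in either direction.

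By complex, 20 of 37 complex I genes, 3 of 4 complex II genes, 7 of 9 complex III genes, 6 of 15 complex IV genes and 10 of 19 complex V genes were higher. NDUFS4, an accessory subunit needed to complete complex I, rose the most: 23.4 and 25.5 FPKM in AMO1 WT against 88.9 and 75.8 in AMO1 BtzR, a log2-fold change of 1.71 ± 0.11 (adjusted p = 1.7e-08). Its BtzR libraries were the highest of all 20 for this gene. NDUFA2, another accessory subunit of complex I, measured 36.0 and 47.3 FPKM in WT and 92.8 and 99.3 in BtzR (1.20 ± 0.11).

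UQCRC2, a core subunit of complex III, went from 87.0 and 92.4 FPKM to 191 and 192 (1.09 ± 0.10). COX7C, a small subunit of complex IV, went from 315 and 389 FPKM to 724 and 756 (1.08 ± 0.13). For these 4 genes the WT and BtzR libraries lay far apart. COX4I1, the common form of the regulatory subunit 4, stood just under 2-fold, at 313 and 349 FPKM in WT and 629 and 619 in BtzR (0.92 ± 0.07, adjusted p = 1.7e-07).

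Of the 3 genes for the c-ring of the ATP synthase, which encode the same mature protein, 2 rose and 1 fell. ATP5MC1 went from 334 and 296 FPKM to 527 and 559 (0.79 ± 0.14), and ATP5MC3 from 103 and 115 to 172 and 176 (0.67 ± 0.10). ATP5MC2 went the other way, from 496 and 544 FPKM to 331 and 320 (fell by 0.67 ± 0.09, adjusted p = 2.4e-05). ATP5F1B, the highest of all 86 by the mean over the 4 WT groups, fell by 0.32 ± 0.07. The other genes that fell were NDUFA4L2, NDUFB2, ATP5MF, NDUFA5, ATP5MGL, NDUFC2, ATP5PB, COX6A1 and SDHB, by 0.80 to 0.19. Among these falls, those of ATP5MGL, NDUFA4L2, COX6A1 and SDHB rested on single libraries: without WT replicate 2, for example, limma gave adjusted p = 0.0725, 0.348, 0.25 and 0.395.

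The size of the AMO1 shift depended on which control libraries were used. AMO1 WT replicate 1 lay below replicate 2 for 73 of the 84 subunit genes, with a median gap of 0.19 on the log2 scale, against gaps of -0.10 to 0.07 in the other 9 groups. The median gap of that pair was 0.24 over 85 cytosolic ribosomal protein genes, 0.10 over 665 other tested genes with transcripts under 1000 nt, 0.03 over 75 mitochondrial ribosomal protein genes and 0.01 over all genes tested. Without that library 32 subunit genes were higher and 12 lower, and the median was 0.20; without replicate 2 they were 48 and 6, and 0.44. The part that either WT library plays in the shift was not tested further.

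Genes that work with these complexes were counted in AMO1 BtzR as well. Of 14 assembly factors of complex I, 3 were higher and 3 lower, and of 22 assembly factors of complex IV, 3 were higher and 7 lower (medians 0.04 and -0.05). Of 75 mitochondrial ribosomal proteins, 22 were higher and 23 lower, with a median of -0.02. Of 85 cytosolic ribosomal proteins, 34 were higher and 11 lower, with a median of 0.18. Of 14 tricarboxylic acid cycle genes, 6 were higher and 5 lower. Among the 14 regulators of mitochondrial transcription and mtDNA, 4 were higher, 2 were lower and 8 did not pass, with a median of 0.01. The higher ones were PPARGC1A and PPARGC1B (the coactivators PGC-1 alpha and beta), YY1 and POLG, and the lower ones TFAM and TFB1M. Beside all these counts, 25.6% of all genes tested were higher and 25.6% lower.

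**Figure D2:**
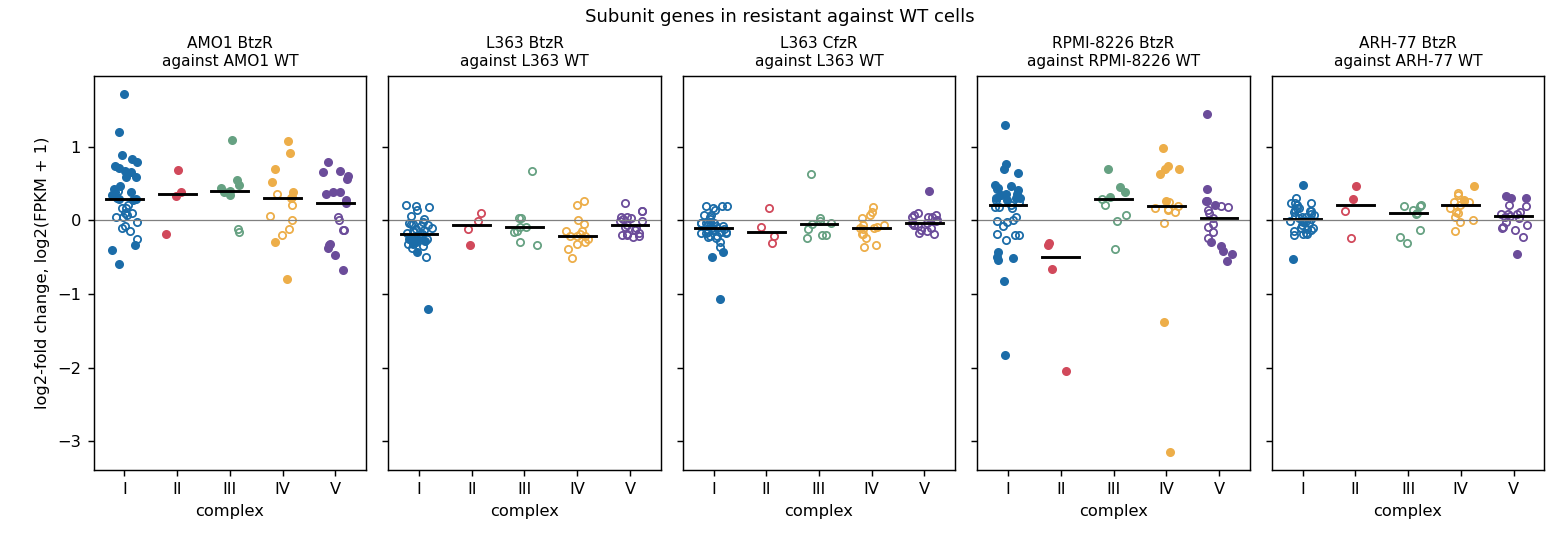
Log2-fold change of each tested subunit gene (points) by complex in the 5 comparisons of a resistant line with its own WT cells; filled points passed the test, open points did not, and bars are medians. Points lie mostly above 0 in AMO1 BtzR, close to 0 in both L363 lines and ARH-77 BtzR, and on both sides in RPMI-8226 BtzR, where all 4 complex II genes are below 0; the lowest point there is COX7B2, drawn from libraries listed at 0.

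In L363 the resistant lines differed little from WT cells. In L363 BtzR, 0 subunit genes were higher and 7 lower (5.66% and 5.52% of all genes), and 1 passed 2-fold (2.06% of all genes in either direction). The median was -0.15 over the subunit genes and 0.00 over all genes. It was also -0.15 over the 665 other tested genes with transcripts under 1000 nt. Over 75 mitochondrial ribosomal protein genes it was -0.24, and over 85 cytosolic ones -0.11. Rescaling to equal sums moved the median of the subunit genes to -0.09, and quantile normalization to -0.08. The part of transcript length was not tested. In L363 CfzR, 1 was higher and 3 lower (4.88% and 3.58% of all genes), and 1 passed 2-fold (1.93%). Here the median was -0.08 over the subunit genes and -0.05 over the same 665 short genes. The 7 lower calls in BtzR came down to between 1 and 3 when any 1 of the 4 libraries was left out: 1 without WT replicate 1, 3 without WT replicate 2, 2 without BtzR replicate 1 and 1 without BtzR replicate 2.

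NDUFA1, an X-linked accessory subunit of complex I, was the gene past 2-fold in both L363 lines. It measured 284 and 250.04 FPKM in WT, 119.7 and 111 in BtzR, and 109 and 149 in CfzR. The log2-fold change was -1.20 ± 0.17 in BtzR (limma adjusted p = 0.0002) and -1.06 ± 0.17 in CfzR (0.0007). All 4 resistant libraries lay below both WT libraries, which both comparisons share. In AMO1 BtzR the same gene rose from 107 and 151 FPKM to 224 and 199.9 (0.73 ± 0.17).

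The other calls in L363 were under 2-fold. In BtzR they were NDUFB7, SDHD, NDUFB11, NDUFA11, NDUFA8 and NDUFV2, which fell by 0.44 to 0.25. In CfzR they were NDUFB2 and NDUFA5, which fell by 0.50 and 0.43, and ATP5MC2, which rose by 0.40 ± 0.09. ATP5MC2 measured 396 and 366 FPKM in WT, 529 and 477 in CfzR, and 447 and 451 in BtzR, where its change of 0.24 did not pass (limma adjusted p = 0.115). The CfzR call was lost without WT replicate 2 or CfzR replicate 1 (adjusted p = 0.126 and 0.129).

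The 2 drugs were compared directly in this line. L363 CfzR differed from L363 BtzR in 3 subunit genes, with NDUFV2 higher by 0.29 ± 0.07 and NDUFA5 and SDHC lower by 0.36 ± 0.09 and 0.41 ± 0.10 (1 higher and 2 lower, beside 3.27% and 2.87% of all genes). None of the 3 calls remained when any 1 of the 4 libraries was left out. Each drug is represented by 1 adapted line, so drug and line cannot be told apart.

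In RPMI-8226 BtzR subunit genes were called in both directions, at shares near those of all genes tested. Against RPMI-8226 WT, 30 of 84 subunit genes were higher (35.7%) and 17 lower (20.2%), where 30.2% of all genes were higher and 24.2% lower. Past 2-fold were 2 higher and 4 lower, beside 13.8% of all genes in either direction. The counts of 17 and 4 include COX7B2, which passed the filter through RPMI-8226 WT alone, so that its fall was fixed by the filter. The median was 0.17 over the subunit genes and 0.05 over all genes.

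All 4 complex II genes fell. SDHC, a heme-binding membrane anchor, measured 47.6 and 46.2 FPKM in WT and 11.3 and 9.94 in BtzR, a log2-fold change of -2.05 ± 0.10 (adjusted p = 2.5e-10). These were the lowest SDHC values of the 20 libraries, and the others lay between 28.4 and 150. SDHA, the flavoprotein that oxidises succinate, went from 120.2 and 147 FPKM to 80.6 and 87.9 (fell by 0.65 ± 0.10). SDHB, the iron-sulfur subunit, and SDHD fell by 0.33 ± 0.08 and 0.31 ± 0.08; the SDHD call was lost without BtzR replicate 2 (fell by 0.20, limma adjusted p = 0.0544).

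Summed over its 4 genes, complex II took 0.0916% and 0.0989% of all FPKM in RPMI-8226 WT and 0.0666% in each BtzR library. The summed FPKM of complex IV went the other way, from 0.656% and 0.691% to 0.909% and 0.902%. In complex IV, COX6C, COX7C, COX5A, COX6A1, NDUFA4 and COX4I1 were higher, by 0.98 to 0.27. COX7C measured 445 and 456 FPKM in WT and 718 and 790 in BtzR (0.74 ± 0.13).

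Complex I had 1 gene past 2-fold in each direction. NDUFV2 measured 440 and 449 FPKM in WT and 125 and 124 in BtzR, -1.83 ± 0.07 (limma adjusted p = 1.1e-11). The BtzR values lay within the range of the other lines, and the WT values lay above it. NDUFB1, an accessory subunit of the membrane arm, rose from 57.8 and 54.4 FPKM to 155 and 124 (1.29 ± 0.17). In all, 15 complex I genes were higher and 6 lower.

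In complex V, 5 genes were higher and 5 lower. ATP5MPL, a small subunit of the membrane part, rose from 70.5 and 76.5 FPKM to 214 and 189.6 (1.44 ± 0.09). ATP5ME, ATP5PO, ATP5PF, ATP5F1B and ATP5MC2 fell by 0.55 to 0.29. The ATP5MC2 call was lost without BtzR replicate 2 (change of -0.26) or WT replicate 1 (-0.23). Of the low isoforms, NDUFA4L2 went from 4.92 and 7.17 FPKM to 1.25 and 2.15 (fell by 1.39 ± 0.28), and COX7B2, the gene found above 1 FPKM in this WT line alone, was listed at 0 in both BtzR libraries.

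**Figure D3:**
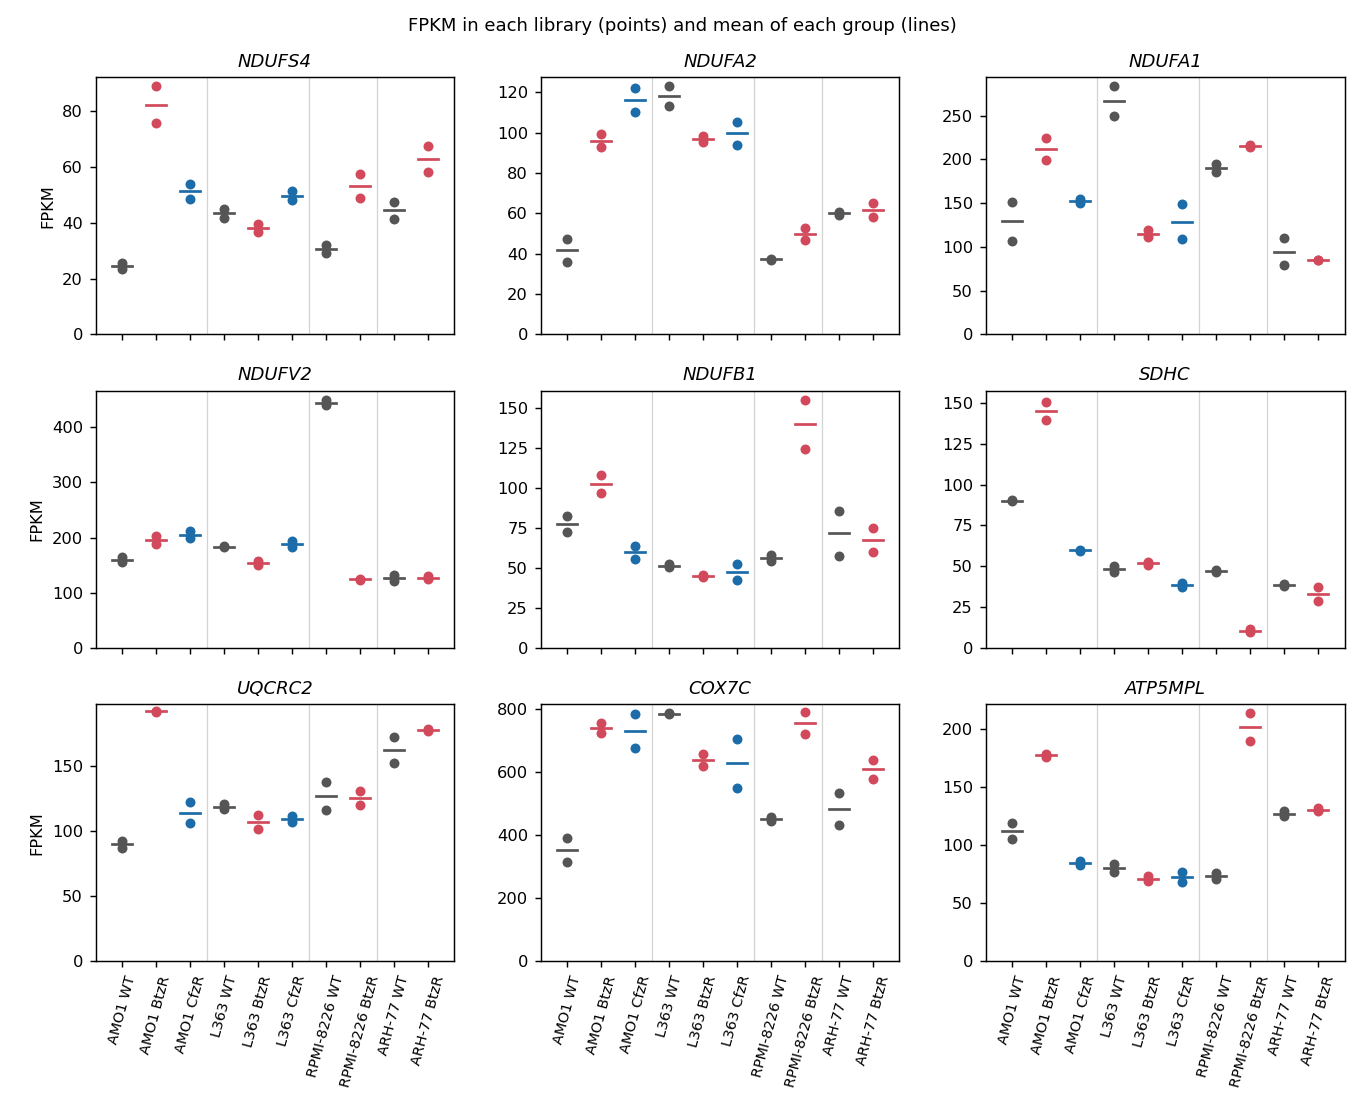
FPKM of 9 subunit genes in each of the 20 libraries (points; lines are group means of 2), with WT in grey, BtzR in red and CfzR in blue; each vertical axis starts at 0. SDHC in RPMI-8226 BtzR (11.3 and 9.94 FPKM) and NDUFV2 in RPMI-8226 WT (440 and 449 FPKM) stand outside the range of all other groups, and NDUFA1 is lower in both resistant L363 lines than in L363 WT.

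ARH-77 BtzR, the line of B-lymphoblastoid origin, had 8 subunit genes higher and 2 lower (5.98% and 7.6% of all genes), and 0 past 2-fold (1.6% of all genes). The median was 0.07, and -0.04 over all genes. Catalytic subunits of complex II rose here, SDHA from 71.0 and 88.3 FPKM to 108 and 111 (0.46 ± 0.10) and SDHB from 165 and 164 to 205 and 197 (0.29 ± 0.08). COX5B rose from 229 and 223 FPKM to 306 and 319 (0.46 ± 0.09). NDUFS4, COX4I1, ATP5PD, ATP5PF and ATP5F1C rose by 0.49 to 0.27. NDUFB9 fell from 323 and 290.0 FPKM to 221 and 205 (by 0.52 ± 0.12), and ATP5MC1 fell by 0.46 ± 0.14. The count of genes called higher was 3 without BtzR replicate 1 and 4 without BtzR replicate 2, and the count called lower was 1 without WT replicate 1 and 0 without BtzR replicate 2. Single calls lost included those of SDHA without BtzR replicate 2 and NDUFS4 without BtzR replicate 1. Those of SDHB and COX4I1 were lost without WT replicate 2 or either BtzR library, and that of ATP5PD without WT replicate 2 or BtzR replicate 1. Both falls were lost in places too. NDUFB9 no longer passed without BtzR replicate 2 (change of -0.47), nor ATP5MC1 without WT replicate 1 or either BtzR library (-0.32 to -0.50).

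The difference between the BtzR and WT cells of a line is called its bortezomib effect here, although it holds drug and adaptation together. It differed between the 4 lines for 67 of the 84 subunit genes (79.8%) by a moderated F test of the interaction. Of all genes tested, 71.1% passed. The 67 include COX7B2, whose outcome the filter fixed. That gene is also among those called in 1 comparison below. Over the 5 comparisons with WT cells of the same line, 14 subunit genes were never called, 27 were called in 1 comparison, 31 in 2 and 12 in 3 (16.7%, 32.1%, 36.9% and 14.3%, where the shares of all genes tested were 19.1%, 38.6%, 29.8% and 9.44%). Of the 31, 13 were called in opposite directions (41.9%, and 41.2% over all genes), and of the 12, 9 (75%, and 54.1%). Those called in 3 comparisons and 1 direction were NDUFS4, COX4I1 and ATP5F1C, all higher in AMO1 BtzR, RPMI-8226 BtzR and ARH-77 BtzR. The COX4I1 call in RPMI-8226 BtzR was lost without WT replicate 2 (change of 0.20). In ARH-77 BtzR the calls of COX4I1 and NDUFS4 were lost when some single libraries were left out, as given above. The calls of ATP5F1C were not checked in this way. None was called in 4 or 5 comparisons, as 2.67% and 0.29% of all genes were. These comparisons include the 2 of L363, which share their WT libraries.

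SDHC was an example of opposite directions: it rose in AMO1 BtzR from 89.8 and 90.4 FPKM to 150 and 140 (0.68 ± 0.10) and fell in RPMI-8226 BtzR, as given above. SDHA fell in RPMI-8226 BtzR and rose in AMO1 BtzR (0.33 ± 0.10) and ARH-77 BtzR, but leaving out any 1 of the AMO1 libraries gave adjusted p of 0.0505 to 0.0611. NDUFB9, an accessory subunit of complex I, rose in AMO1 BtzR from 162 and 209 FPKM to 278 and 273 (0.58 ± 0.12) and fell in RPMI-8226 BtzR and ARH-77 BtzR. COX6A1 rose in RPMI-8226 BtzR from 442 and 444 FPKM to 752 and 688 (0.70 ± 0.10) and fell in AMO1 BtzR, a call lost without WT replicate 2 or BtzR replicate 1 (limma adjusted p = 0.25 and 0.148).

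Subunit genes lie on nearly all chromosomes, and their changes were set beside those of the 10 tested genes on each side of them in RefSeq order. This description was added after the values were seen. Several of the largest changes were shared with the neighbours. Around NDUFA1 on chromosome X, 18 of the 20 neighbours were lower in the bortezomib-resistant L363 line and 17 in the carfilzomib-resistant one, with medians of -0.95 and -0.90, against -0.00 and -0.03 for the rest of the chromosome. Around ATP5MPL on chromosome 14, 18 of 20 neighbours were higher in RPMI-8226 BtzR (median 1.25), and around NDUFB1 on the same chromosome 19 of 20 (median 1.00), while the rest of the chromosome had a median of 0.28. With 25 genes on each side in place of 10, the median around NDUFB1 was 0.62 and that around ATP5MPL 1.01.

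In AMO1 BtzR, COX7C and NDUFA2 on chromosome 5 each had 16 of 20 neighbours higher, with medians of 0.57 and 0.55. ATP5MC2 on chromosome 12 had 16 of 20 lower, with a median of -0.78. Both chromosomes were shifted as a whole in AMO1 BtzR, with medians over all their tested genes of 0.39 (chromosome 5) and -0.38 (chromosome 12). NDUFB9 on chromosome 8 had 14 of 20 neighbours higher in AMO1 BtzR (median 0.60) and 14 of 20 lower in ARH-77 BtzR (median -0.53), like the gene itself. NDUFS3 on chromosome 11, which fell by 0.82 in RPMI-8226 BtzR, had 17 of 20 neighbours lower (median -0.83). A median of neighbours of at least 0.5 in either direction was found around 11.4% of all genes in AMO1 BtzR and 7.95% in RPMI-8226 BtzR, and around 9.52% and 13.1% of the subunit genes. The share over all genes was 1.67% for ARH-77 BtzR, 1.0% for L363 BtzR and 0.49% for the other L363 line, and 1 subunit gene was among them in each.

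Other large changes stood apart from their neighbours. SDHC on chromosome 1 fell by 2.05 in RPMI-8226 BtzR while its 20 neighbours had a median of 0.02, with 6 higher and 3 lower. NDUFV2 on chromosome 18 fell by 1.83 against a median of -0.16. In AMO1 BtzR, UQCRC2 on chromosome 16 rose by 1.09 against a median of 0.05 (0.16 with 25 genes on each side), and NDUFS4 on chromosome 5 by 1.71 against 0.44. The other 3 complex II genes in RPMI-8226 BtzR lay near the medians of their neighbours: SDHA by -0.65 against -0.48 over the 13 neighbours it has near the end of chromosome 5, SDHB by -0.33 against -0.26, and SDHD by -0.31 against -0.33.

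Over all subunit genes in AMO1 BtzR, the median of the difference between a gene and its neighbours was 0.21, with 67 of 84 above their neighbours. In RPMI-8226 BtzR this median was 0.10 (59 of 84 above), in ARH-77 BtzR 0.11 (60), -0.14 in L363 BtzR (17) and -0.07 in its CfzR counterpart (25). Over all genes these medians were 0.00. Copy number was not measured in these data.

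**Figure D4:**
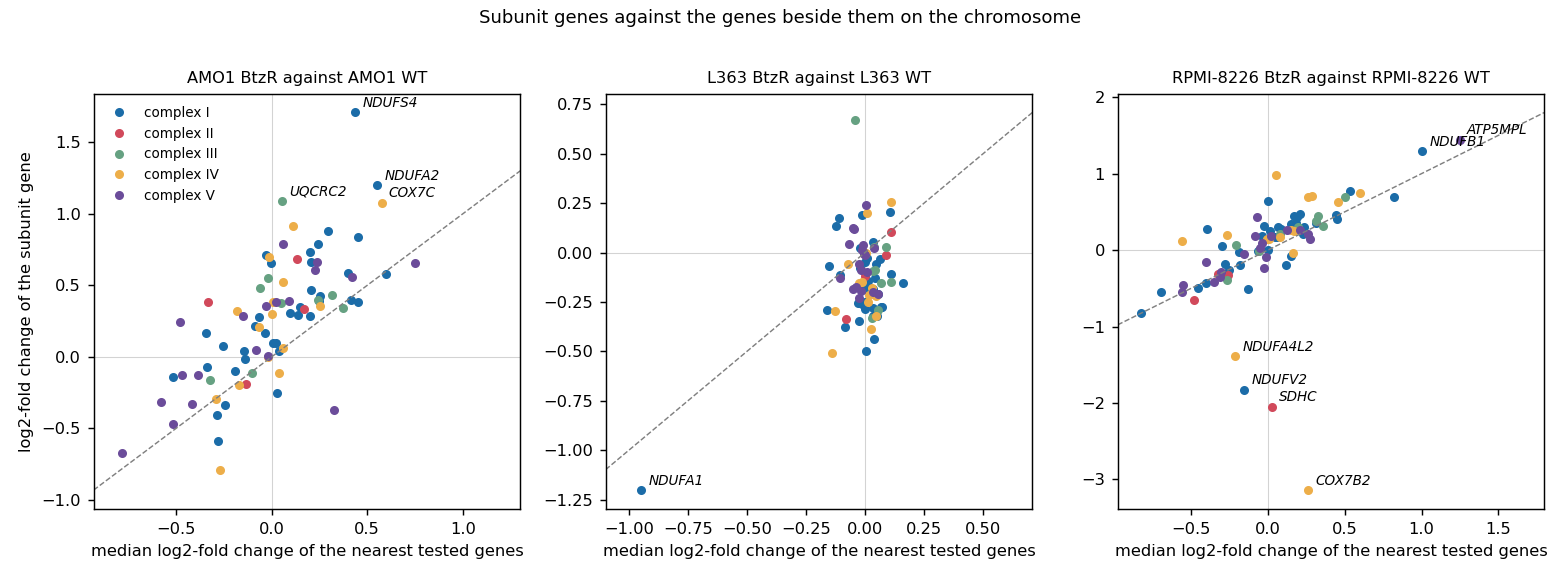
Log2-fold change of each tested subunit gene (vertical axis) against the median log2-fold change of the 10 tested genes on each side of it (horizontal axis) in 3 comparisons; the dashed line marks equal values and colours mark the complexes. NDUFA1, NDUFB1 and ATP5MPL lie near the line, while SDHC (-2.05), NDUFV2 (-1.83) and UQCRC2 (1.09) lie away from it at neighbour medians near 0; COX7B2 is drawn from its value of log2(0 + 1) in the resistant libraries.

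The changes were also read by motif, as medians with no test. In AMO1 BtzR the 10 genes with the NRF1 motif had a median log2-fold change of 0.39 and the 60 tested genes without it 0.30, and for the YY1 motif these were 0.37 over 22 genes and 0.30 over 48. In RPMI-8226 BtzR they were -0.04 and 0.18 for NRF1, and 0.17 and 0.19 for YY1. The 5 genes with the cAMP response element had a median of -0.33 in RPMI-8226 BtzR and 0.39 in AMO1 BtzR. The 65 without it had medians of 0.19 and 0.31. For the ETS motif the medians with and without it were 0.31 and 0.32 in AMO1 BtzR, and 0.17 and 0.19 in RPMI-8226 BtzR.

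The libraries labelled AMO1 CfzR had 52 subunit genes higher and 6 lower than AMO1 WT (26.8% and 30.9% of all genes) and 10 past 2-fold, all higher (17.1% of all genes), but this contrast sets L363-like values against AMO1. Against L363 WT they had 5 higher and 1 lower (3.52% and 3.4% of all genes) and 1 past 2-fold (1.66%). SDHD shows the difference: the libraries labelled AMO1 CfzR measured 95.4 and 101.5 FPKM, near L363 WT at 97.5 and 89.7, and far from AMO1 WT at 24.3 and 26.4 and AMO1 BtzR at 33.4 in both.

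Against L363 WT, NDUFA1 was lower in these libraries too, at 151 and 155 FPKM (fell by 0.80 ± 0.17, adjusted p = 0.0082), and 18 of its 20 neighbours were lower, with a median of -0.87. The NDUFA1 call was lost without AMO1 CfzR replicate 1 or 2 or L363 WT replicate 1 (limma adjusted p = 0.0535 to 0.0993). SDHA, NDUFS6, ATP5ME and ATP5PO were higher by 0.51, 0.78, 0.45 and 0.28. UQCRHL was the one past 2-fold (1.17 ± 0.29), at 11.5 and 9.21 FPKM against 4.24 and 3.81, and its reads could have come in part from UQCRH, which measured 360 and 413 FPKM against 368 and 376. This comparison shares its L363 WT libraries with those of the L363 resistant lines. With any 1 of its 4 libraries left out, the count of 5 higher became 1 or 2, namely 2 without AMO1 CfzR replicate 1, 1 without AMO1 CfzR replicate 2, 1 without L363 WT replicate 1 and 2 without L363 WT replicate 2.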

How the data were processed

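Messenger RNA of 20 cultures was sequenced by the study on a BGISEQ-500, and the authors deposited 1 table of FPKM values to 2 decimals for 18305 genes with NCBI gene identifiers; the submitters' processing notes name HISAT2 2.0.4, Bowtie2 2.2.5 and RSEM 1.2.12 without roles. The genome build is not given in the sources used here. FPKM is a share of each library, so a rise of abundant genes lowers the others, and depth, and with it counting error, is unknown. No further scaling was applied. Samples were grouped by their titles, and replicates were biological as the study's methods state.

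From these values log2(FPKM + 1) was computed, and 13089 genes with a group mean of 1 FPKM or more were tested. One limma 3.58.1 model (R 4.3.3; 10 group means, 10 residual degrees of freedom, moderated variances with a mean trend) gave each contrast and F test, with Benjamini-Hochberg adjustment over all genes tested at 0.05. The script was tested on simulated data. Subunit genes named with values had passed a log2-fold change of 1 in a comparison with own WT cells, or were the most changed of their complex. For both conditions the libraries labelled AMO1 CfzR against AMO1 WT counted as such a comparison, and some genes were named through it alone. Others were the highest or lowest of their complex, or were paralogs and tissue forms. The rule's further class, changed one way in all 4 resistant myeloma comparisons, was empty. More genes were named after their values were seen. The subunit genes, gene lists and tests were chosen with earlier results of these data known. Alternatives were the added constant, the filter, 2 rescalings, no variance trend, a 2-fold threshold, a replicate block, fits without the libraries labelled AMO1 CfzR or with the compared libraries alone, and leaving out each library. Neighbours were taken for the 13064 tested genes with a RefSeq position. Promoters were the first RefSeq entry of each gene.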

Additional observations from a re-analysis of the deposited data

Results flagged for a closer look

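The bortezomib effect of 33 named subunit genes differed between the 4 lines by the moderated F test of the interaction. Its limma adjusted p is given after each gene. The test asks whether any line differs, over a background of 71.1% of all genes tested that passed it. Some of these genes were named only through the libraries labelled AMO1 CfzR against AMO1 WT. In complex I the 9 genes were NDUFV2 (5.75e-10), NDUFS4 (9.32e-07), NDUFA2 (9.01e-06), NDUFA1 (5.18e-05), NDUFB9 (0.000145), NDUFS7 (0.000272), NDUFB1 (0.000284), NDUFA6 (0.00259) and NDUFA5 (0.00707). NDUFV2 fell in RPMI-8226 BtzR and rose in AMO1 BtzR, and NDUFA1 fell in L363 BtzR and rose in AMO1 BtzR. In complex II the 4 genes were SDHC (3.61e-09), SDHA (3.92e-05), SDHD (0.000111) and SDHB (0.000898). All 4 genes of this complex passed, and all 4 fell in RPMI-8226 BtzR. In complex III the 2 genes were UQCRC2 (6.04e-06) and UQCRQ (9.51e-05). In complex IV the 11 genes were COX4I1 (1.33e-05), COX7C (0.000105), COX6A1 (0.000108), NDUFA4 (0.000285), COX7B (0.00095), COX5B (0.00183), COX6B1 (0.00393), NDUFA4L2 (0.0292), COX7A2 (0.0426), COX7A2L (0.0428) and COX7B2 (1.17e-11). The last value is no evidence of a difference: COX7B2 passed the filter through RPMI-8226 WT alone and was listed at 0 in all other libraries of the bortezomib comparisons, so the filter fixed the outcome. In complex V the 7 genes were ATP5MPL (1.26e-07), ATP5MC2 (0.00011), ATP5MC1 (0.000384), ATP5F1B (0.000596), ATP5MC3 (0.00167), ATP5ME (0.00196) and ATP5PD (0.0256). ATP5MC1 rose in AMO1 BtzR and fell in ARH-77 BtzR.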

How the results depend on the processing

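Without counts, the depth behind each value is unknown and the precision of low genes cannot be stated. With 2 libraries a group, calls borrow the spread of all groups. The calls recalculated below include those of the libraries labelled AMO1 CfzR against AMO1 WT. Of 1216 recalculations of 96 calls of named subunit genes, 1082 kept their direction and passed, 134 kept their direction and no longer passed, and 0 reversed; the cause was not tested.

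Fitted with only the libraries compared, with fewer residual degrees of freedom, the counts of subunit genes were 7 lower in AMO1 BtzR, 1 higher and 12 lower in L363 BtzR, 0 higher and 1 lower in L363 CfzR, 0 higher and 0 lower in ARH-77 BtzR, and 0 higher and 0 lower for L363 CfzR against BtzR. Requiring a log2-fold change of 1 as well, which by construction leaves fewer, gave 4 higher and 0 lower in AMO1 BtzR, 1 lower in L363 BtzR, 0 higher and 1 lower in L363 CfzR, 2 higher and 4 lower in RPMI-8226 BtzR, 0 and 0 in ARH-77 BtzR, 10 and 0 for AMO1 CfzR against AMO1 WT, 1 and 0 for the libraries labelled AMO1 CfzR against L363 WT, and 0 and 0 for L363 CfzR against BtzR. Rescaling to equal sums gave 1 higher and 4 lower in L363 BtzR, where it also moved the higher share of all called genes from 50.6% to 62.6%, and 0 higher for L363 CfzR against BtzR. Quantile normalization gave 2 higher and 3 lower in L363 BtzR, 3 higher for the libraries labelled AMO1 CfzR against L363 WT and 0 higher for L363 CfzR against BtzR. With no filter, 1 was lower in ARH-77 BtzR and 2 were higher for the libraries labelled AMO1 CfzR against L363 WT, and without those libraries in the fit 1 was lower in ARH-77 BtzR.

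The deviations of same-numbered replicates correlated at 0.12 to 0.24 in 7 of 8 comparisons and at -0.01 in AMO1 BtzR; the labels tie the numbers to no shared batch or day, so they were not taken to pair the samples. With the replicate number as a block the counts were 46 higher and 11 lower in AMO1 BtzR, and 1 count moved by more than 1.5 times, 2 higher for L363 CfzR against BtzR.

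Leaving out each library in turn gave 32 to 48 higher and 6 to 12 lower in AMO1 BtzR (6 lower without WT replicate 2 or BtzR replicate 1, 7 without BtzR replicate 2), 0 to 1 higher and 1 to 3 lower in L363 BtzR, 0 to 1 higher and 2 to 4 lower in L363 CfzR (0 higher without CfzR replicate 1), 23 to 33 higher and 15 to 19 lower in RPMI-8226 BtzR, 3 to 10 higher and 0 to 2 lower in ARH-77 BtzR, 44 to 55 higher and 6 to 7 lower for AMO1 CfzR against AMO1 WT, 1 to 2 higher and 0 to 1 lower for those libraries against L363 WT, and 0 and 0 for L363 CfzR against BtzR. The WT lines then differed in 77 to 81 subunit genes and the bortezomib effect in 58 to 70. Taking 25 neighbours a side in place of 10, chosen after seeing the data, moved 9 of 22 medians: to 0.42 around COX7C and 0.16 around UQCRC2 in AMO1 BtzR, to -0.71 around NDUFA1 in L363 CfzR, to 0.62 around NDUFB1 and 1.01 around ATP5MPL in RPMI-8226 BtzR, and 4 for AMO1 CfzR against AMO1 WT.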
